A study of Mus musculus with 8 samples.

Results

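The 44 genes described here encode the machinery that brings proteins into the endoplasmic reticulum (ER), folds them there and removes those that fail to fold. They were picked by gene symbol from a list by role, drawn up with earlier results of these data known, and are 44 of the 45777 genes in the authors' table. They fall into 4 classes: 16 genes of the translocon and the oligosaccharyl transferase, 16 chaperones and disulfide isomerases, 9 genes of ER-associated degradation, and a sensor class of 3. The sensor class holds Ern1 and Atf6, sensors of unfolded protein, and the transcription factor Xbp1. All 44 passed the filter on low counts, which 14945 genes passed in all.

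Secreted and membrane proteins are threaded into the ER through the Sec61 channel, receive N-glycans from the oligosaccharyl transferase and fold with the help of chaperones and disulfide isomerases. Proteins that do not fold are pulled back to the cytosol and degraded. When unfolded protein accumulates, the sensors IRE1 (Ern1), ATF6 and PERK (Eif2ak3) start the unfolded protein response, which raises transcription of many chaperone and degradation genes. In the intestine this system is best known from goblet cells, which secrete large amounts of mucin, and from Paneth cells.

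RNA sequencing compared colonic organoids of 2 genotypes, with 4 libraries each. KO organoids came from Reg3aΔIEC mice, in which Villin-Cre, active in intestinal epithelium, deletes the floxed exons 2 to 4 of Reg3a, the gene of a secreted antimicrobial lectin. WT organoids came from Reg3a fl/fl mice, which carry the same floxed allele and for which no Cre is named. The labels name C57BL/6J as the purchased strain, the donors were 9-week-old males, and the organoids, grown from EDTA-isolated crypts in Matrigel for at most 15 passages, were collected untreated 3 days after passage. The labels contradict themselves on replication, naming a single mouse with 4 wells for each genotype in one place and several mice in another. The p-values below therefore measure only how far these 8 libraries vary, which may be technical variation, and genotype and donor mouse cannot be told apart.

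The libraries held 37182098 to 49256171 counts. Reg3a had 0 counts in all 8 libraries, which allows up to 0.0609 to 0.0807 CPM (counts scaled to library size), so its counts do not check the genotype labels. Epithelial markers such as Epcam, Krt8 and Cdh1 were abundant, with a summed level over 8 markers of 10509 to 11123 CPM in KO libraries and 10120 to 10896 CPM in WT libraries. Of those 8, Vil1 and Cdx2 were higher in KO (log2 fold changes of 0.25 and 0.33, edgeR adjusted p = 0.00208 and 0.00024). KO library 6 stood apart: its 6 leukocyte markers summed to 10.9 CPM, of which Lyz2 gave 9.90 CPM and the pan-leukocyte marker Ptprc 0 counts, against 0.511 to 1.42 CPM in the other 7 libraries, and its 3 endothelial markers to 1.32 CPM, against 0 to 0.0479 CPM. The share of counts from mitochondrially encoded genes was 1.57 ± 0.159% in KO and 1.14 ± 0.0991% in WT libraries (SD, n = 4 each). Its part in the results below was not tested.

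KO organoids held less RNA of a subset of these genes, mostly chaperones and disulfide isomerases, with Herpud1, Derl3, Xbp1 and a few translocon and transferase genes. By edgeR's quasi-likelihood test with Benjamini-Hochberg adjustment over all 14945 genes, 13 of the 44 (29.5%) were lower in KO at an adjusted p under 0.05, where 8.26% of all genes tested were lower. None was higher by edgeR, where 7.63% of all genes tested were higher. At an unadjusted p under 0.05, 16 of the 44 were lower and 1, Sel1l, was higher. At that threshold 2177 of all 14945 genes tested were lower and 2106 higher. DESeq2 called Sel1l higher too, with 1336 genes higher in all. Without KO library 8, 7 of the 44 (15.9%) and 4.78% of all genes tested were lower. Of the 13, 11 fell by 9.05% to 17.3%, and the rare genes Pdia5 and Derl3 fell further. The median log2 fold change was -0.07 over the 44 genes and 0.00 over all genes tested, and 35 of the 44 were below 0. In 16 of the 44 (36.4%) every KO library lay below every WT library, against 10.3% of all genes tested, and in 1 (Dnajb11) every KO library lay above, against 9.9% of all genes tested. Goblet cell markers moved the same way, with 7 of 12 lower in KO, and in bulk samples fewer cells of a type and less RNA per cell cannot be told apart.

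**Figure D1:**
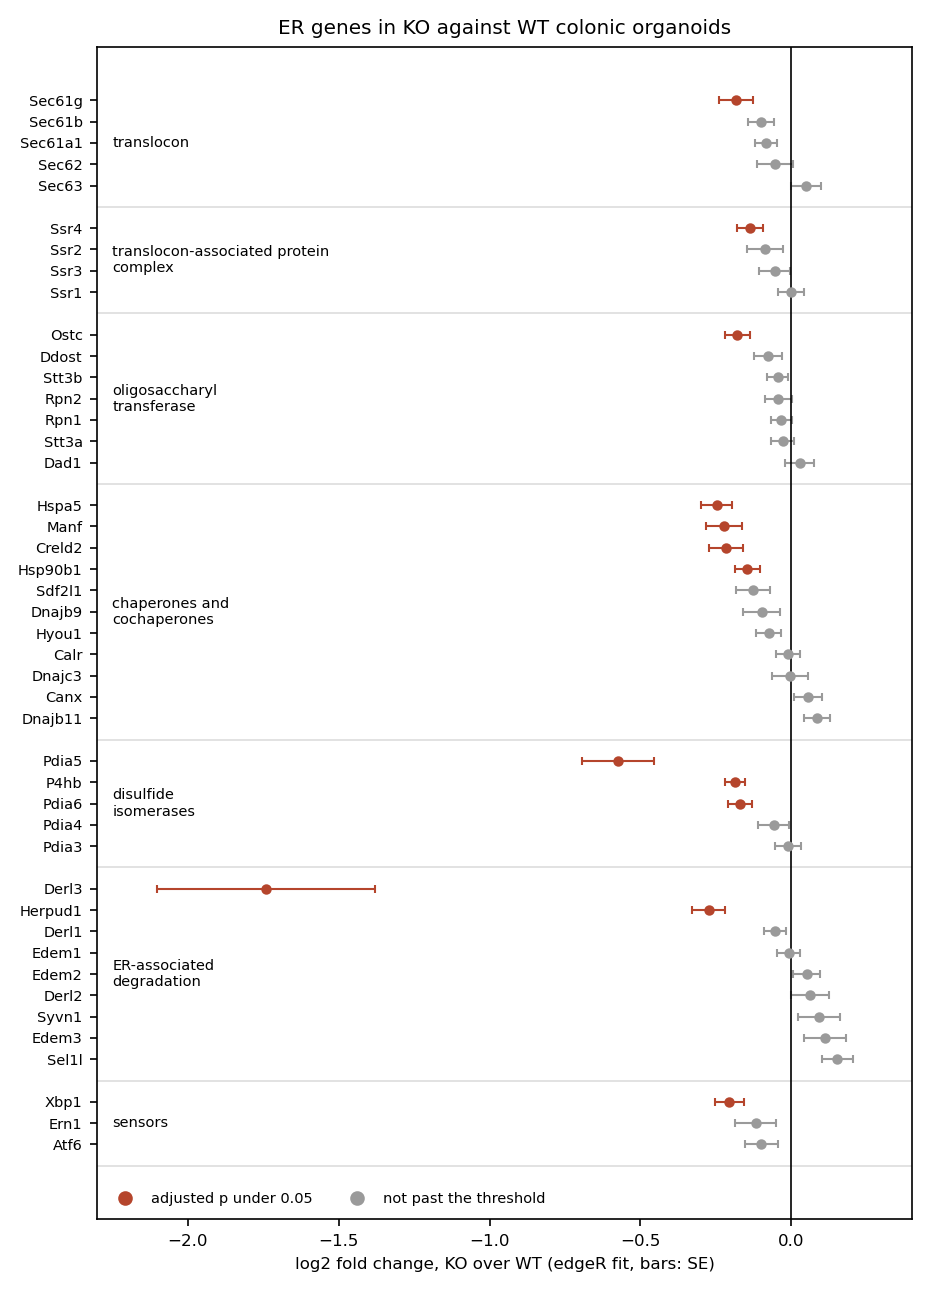
Fitted log2 fold change of KO over WT for each of the 44 genes, grouped by role, with bars for the standard error. The 13 genes past the threshold all lie left of 0, with Derl3 at -1.74 and Pdia5 at -0.57 farthest out, and the degradation genes other than Derl3, Herpud1, Derl1 and Edem1 lie right of 0.

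The classes differed in the share lower in KO, and the difference between classes was not tested. Of all genes tested, 8.26% were lower. Of the chaperones and disulfide isomerases, 7 of 16 (43.8%) were lower, with a median log2 fold change of -0.11. Of the translocon and oligosaccharyl transferase genes, 3 of 16 (18.8%) were lower, with a median of -0.05. Without KO library 5, KO library 8 or WT library 13, 14 or 16, that count was 1 of 16. This was near the share of all genes tested that were lower in those fits (4.78% to 7.36%). Without KO library 8 the count of chaperones and disulfide isomerases was 3. Of the degradation genes, 2 of 9 (22.2%) were lower but the median was 0.05, and 5 of 9 had a fold change above 0. That median was 0.0153 without WT library 14 and 0.0209 without WT library 15. Of the sensor class, 1 of 3 (33.3%) was lower, with a median of -0.12, and 2 were lower without WT library 14. The 1 was the transcription factor Xbp1, and the sensors Ern1 and Atf6 did not pass with all libraries.

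In the authors' length-scaled values, the 44 genes together made up 6977 ± 54.5 TPM in KO and 7306 ± 187 TPM in WT libraries (SD, n = 4 each). The highest KO library, at 7023 TPM, and the lowest WT library, at 7030 TPM, almost met. The 13 genes that fell summed to 2842 ± 44.6 TPM in KO and 3177 ± 79.7 TPM in WT libraries, which follows from how they were picked. The other 31 summed to 4134 ± 28.0 TPM in KO and 4129 ± 111 TPM in WT libraries.

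The promoters of these genes are shown here because the unfolded protein response acts on known motifs. The ER stress response element (ERSE) was searched as CCAAT, any 9 bases, CCACG, the related ERSE-II as ATTGG, any base, CCACG, and the core of the UPRE as TGACGTG, all on both strands. RefSeq windows of 250 bases before to 50 bases after each annotated start (GRCm38.p6) were found by gene ID for 37 of the 44 genes, and not for Sec61a1, Ssr2, Ostc, Hyou1, Manf, Derl1 and Atf6. Base 0 is the annotated start. An ERSE stood in 9 of these 37 genes (24.3%), against 37 of 27023 genes in the whole table (0.137%). It stood in 5 of the 11 matched genes that were lower in KO (45.5%) and in 4 of the 26 matched genes that were not called (15.4%). The ERSE-II stood in 2 of 37 (5.41%), against 0.0444% of all genes, and the UPRE core in 1 of 37 (2.7%), against 2.22% of all genes. Textbook ERSE genes are among those chosen, so these shares describe the list.

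Of the genes lower in KO that had a window, Sec61g, Ssr4, P4hb, Pdia5 and Xbp1 held none of the motifs searched. The promoter stretches of those that held one follow, 5′ to 3′ on the strand of the gene, with the motif in capitals: Hspa5 (chr2:34771913-34772063, plus strand, UPRE core then ERSE), Hsp90b1 (chr10:86705513-86705676, minus strand, 2 ERSE), Creld2 (chr15:88819500-88819558, plus strand), Derl3 (chr10:75893222-75893280, plus strand), Pdia6 (chr12:17266471-17266529, plus strand) and Herpud1 (chr8:94386357-94386407, plus strand, ERSE-II). In Creld2, Derl3 and the second motif of Hsp90b1 the ERSE lies on the other strand and reads as its reverse complement.
Hspa5: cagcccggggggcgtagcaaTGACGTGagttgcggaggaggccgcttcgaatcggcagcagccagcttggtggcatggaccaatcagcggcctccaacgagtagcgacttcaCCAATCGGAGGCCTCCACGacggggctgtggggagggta
Hsp90b1: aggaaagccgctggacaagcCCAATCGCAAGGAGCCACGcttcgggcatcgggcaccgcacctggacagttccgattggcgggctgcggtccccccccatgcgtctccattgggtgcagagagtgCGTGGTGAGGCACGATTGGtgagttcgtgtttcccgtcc
Creld2: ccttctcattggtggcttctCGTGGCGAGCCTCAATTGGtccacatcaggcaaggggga
Derl3: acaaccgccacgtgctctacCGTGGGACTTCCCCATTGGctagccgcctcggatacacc
Pdia6: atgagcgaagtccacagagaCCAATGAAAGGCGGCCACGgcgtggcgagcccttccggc
Herpud1: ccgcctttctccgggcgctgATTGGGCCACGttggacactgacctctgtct

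Genes with the same element that were not called are shown beside them: Calr (chr8:84847055-84847113, minus strand), Canx (chr11:50325780-50325838, minus strand), Dnajc3 (chr14:118937807-118937865, plus strand) and Syvn1 (chr19:6046512-6046570, plus strand). The ERSE of Calr reads as its reverse complement.
Calr: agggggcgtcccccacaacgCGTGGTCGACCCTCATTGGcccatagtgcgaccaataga
Canx: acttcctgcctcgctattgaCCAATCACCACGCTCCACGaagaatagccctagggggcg
Dnajc3: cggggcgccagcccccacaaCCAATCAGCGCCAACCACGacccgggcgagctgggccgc
Syvn1: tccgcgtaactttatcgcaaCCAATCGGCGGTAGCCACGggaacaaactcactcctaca
The 6 ERSE or ERSE-II genes above that were lower in KO had log2 fold changes of -0.15 for Hsp90b1 to -1.74 for Derl3. The 4 that were not called lay between -0.01 for Calr and 0.09 for Syvn1. Dnajb11, at 0.08, had an ERSE-II after the annotated start, from base 7 to base 17. Genes with the full element thus stood both among those that fell and among those not called.

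**Figure D2:**
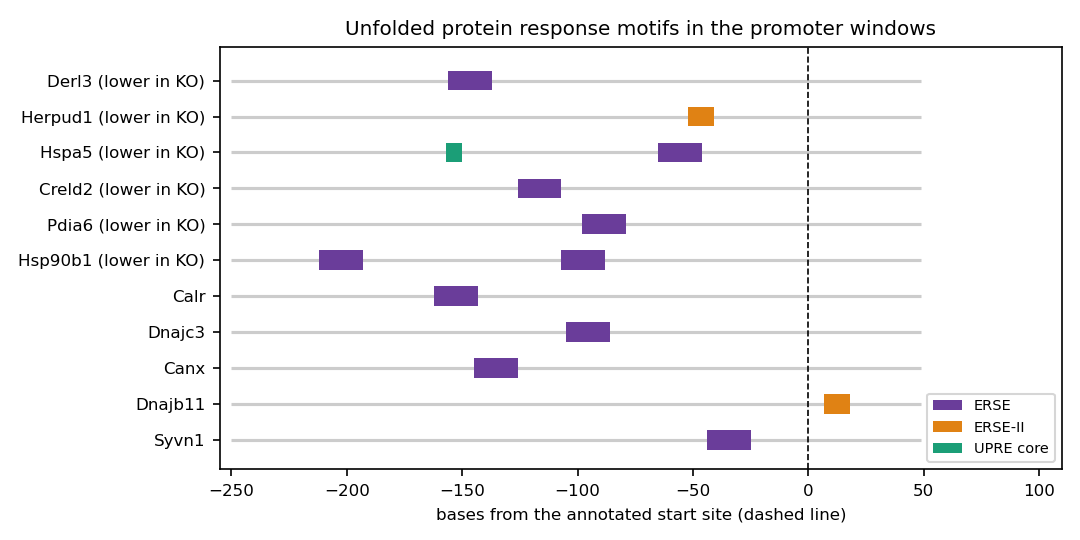
Position of each motif in the promoter windows of the 11 genes that held one, in bases from the annotated start site, with the genes lower in KO above those not called. Most ERSE lie within 162 bases before the start, and Hsp90b1 holds a second one from base -212 to base -194.

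The translocon is the channel through which new proteins enter the ER. Among its 5 genes, Sec61g, the small gamma subunit of the channel (gene ID 20335, chr11:16501638-16508484, GRCm38), had 66.6, 73.2, 68.7 and 60.05 CPM in KO libraries 5 to 8, against 76.5, 79.0, 73.2 and 76.3 CPM in WT libraries 13 to 16. KO library 6 and WT library 15 were nearly equal, the other KO libraries lay clearly below, and Sec61g fell by 11.9% (log2 fold change -0.18 ± 0.06 SE, edgeR adjusted p = 0.0433). Sec61a1, the pore subunit, averaged 235 ± 4.17 CPM in KO and 249 ± 4.98 CPM in WT libraries (SD, n = 4 each, edgeR adjusted p = 0.137), and Sec61b, the beta subunit, 95.5 ± 3.94 CPM in KO and 102 ± 3.20 CPM in WT libraries (edgeR adjusted p = 0.151). For both, every KO library lay below every WT library, but neither passed the threshold. Sec62 and Sec63, which assist post-translational entry and link the channel to Hspa5, had log2 fold changes of -0.05 and 0.05.

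The translocon-associated protein (TRAP) complex helps some signal sequences open the channel. Its subunit Ssr4 (gene ID 20832, chrX:73787023-73790828) had 95.2, 96.5, 103 and 96.2 CPM in KO libraries 5 to 8, against 109, 106, 105 and 109.6 CPM in WT libraries 13 to 16. All KO libraries lay below all WT libraries, with KO library 7 close to WT library 15, and Ssr4 fell by 9.05% (log2 fold change -0.14 ± 0.04 SE, edgeR adjusted p = 0.0392). Ssr1, Ssr2 and Ssr3, the other subunits, had log2 fold changes between -0.09 and 0.00 and did not pass.

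The oligosaccharyl transferase attaches N-glycans to proteins as they enter. Ostc, the subunit that joins the STT3A form of the enzyme to the translocon (gene ID 66357, chr3:130695917-130709444), had 86.4, 85.3, 87.0 and 84.4 CPM in KO libraries 5 to 8, against 97.0, 96.6, 102 and 93.1 CPM in WT libraries 13 to 16. The KO libraries lay within a narrow range and below every WT library, and Ostc fell by 11.7% (log2 fold change -0.18 ± 0.04 SE, edgeR adjusted p = 0.01). Neither catalytic subunit passed: Stt3a averaged 245 ± 6.46 CPM in KO and 249.9 ± 7.78 CPM in WT libraries, and Stt3b 327 ± 1.19 CPM in KO and 338 ± 6.51 CPM in WT libraries (SD, n = 4 each). For Stt3b every KO library lay below every WT library. Rpn1, Rpn2, Ddost and Dad1, the shared non-catalytic subunits, had log2 fold changes between -0.08 and 0.03.

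Leaving out 1 library ended 2 of these 3 calls. The adjusted p of Sec61g was 0.111 without KO library 5, 0.0819 without KO library 7, 0.152 without KO library 8, 0.0995 without WT library 13, 0.0911 without WT library 14 and 0.0760 without WT library 16, and that of Ssr4 was 0.122 without KO library 5, 0.0954 without KO library 6, 0.128 without KO library 8, 0.103 without WT library 13, 0.0550 without WT library 14 and 0.0779 without WT library 16 (edgeR). Ostc stayed at an adjusted p under 0.05 in all 15 alternative fits (other scalings, filters and tools, and each library left out), with values from 0.00055 to 0.0458, but did not reach 0.01 in the fit reported here.

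Chaperones hold unfolded proteins in the ER lumen until they fold. Of the 11 chaperones and cochaperones, 4 (36.4%) were lower in KO, against 8.26% of all genes tested. Hspa5, the Hsp70 chaperone BiP that also keeps the sensors inactive (gene ID 14828, chr2:34772090-34776529), had 439, 464, 397 and 428 CPM in KO libraries 5 to 8, against 524, 522, 533 and 472 CPM in WT libraries 13 to 16. The highest KO library lay below the lowest WT library, and Hspa5 fell by 15.7% (log2 fold change -0.25 ± 0.05 SE, edgeR adjusted p = 0.00557). Hsp90b1, the Hsp90 of the ER known as GRP94 (gene ID 22027, chr10:86690841-86705444), had 622, 647, 585 and 625 CPM in KO libraries 5 to 8, against 711, 688, 695 and 649.6 CPM in WT libraries 13 to 16. KO library 6 and WT library 16 were close, and Hsp90b1 fell by 9.65% (log2 fold change -0.15 ± 0.04 SE, edgeR adjusted p = 0.0289). Both carry the ERSE printed above.

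Creld2, an ER-stress-inducible protein of the ER lumen (gene ID 76737, chr15:88819646-88826681), had 21.3, 21.2, 20.8 and 19.5 CPM in KO libraries 5 to 8, against 23.4, 25.1, 22.9 and 24.9 CPM in WT libraries 13 to 16. The groups did not overlap, and Creld2 fell by 13.9% (log2 fold change -0.22 ± 0.06 SE, edgeR adjusted p = 0.0171). Manf, a small stress-induced protein that binds Hspa5 (gene ID 74840, chr9:106888753-106891938), had 75.3, 69.0, 65.5 and 66.8 CPM in KO libraries 5 to 8, against 82.3, 87.5, 78.2 and 74.5 CPM in WT libraries 13 to 16. It was the only called gene of the 44 whose groups overlapped, by KO library 5 and WT library 16, and it fell by 14.3% (log2 fold change -0.22 ± 0.06 SE, edgeR adjusted p = 0.0207).

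Lectin chaperones and the other cochaperones did not pass. Calr, calreticulin, which holds glycoproteins through their sugars, averaged 577 ± 16.3 CPM in KO and 582 ± 22.9 CPM in WT libraries, and its membrane-bound partner Canx averaged 488 ± 16.6 CPM in KO and 470.2 ± 26.8 CPM in WT libraries (SD, n = 4 each). By length-scaled level Calr was the second most abundant of the 44 genes. Dnajb11, an Hsp40 partner of Hspa5, averaged 84.4 ± 0.943 CPM in KO and 79.6 ± 3.44 CPM in WT libraries, with every KO library above every WT library but an edgeR adjusted p of 0.219. Sdf2l1, Dnajb9, Hyou1 and Dnajc3, which serve or regulate Hspa5, had log2 fold changes of -0.13, -0.10, -0.07 and 0.00.

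Disulfide isomerases make and rearrange the disulfide bonds of secreted proteins. Of 5, 3 (60%) were lower in KO, against 8.26% of all genes tested. P4hb, the classical protein disulfide isomerase (gene ID 18453, chr11:120560298-120573253) and the most abundant of the 44 genes by TPM, had 1075, 1099, 1049 and 1069 CPM in KO libraries 5 to 8, against 1239, 1224, 1197 and 1228 CPM in WT libraries 13 to 16. The groups were far apart for their spread, and P4hb fell by 12.2% (log2 fold change -0.19 ± 0.03 SE, edgeR adjusted p = 0.00154). On the length-scaled level it averaged 750.3 ± 6.62 TPM in KO and 836 ± 9.08 TPM in WT libraries (SD, n = 4 each).

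Pdia5 (gene ID 72599, chr16:35397308-35490919), a rarer isomerase, had 5.70, 7.32, 6.71 and 7.42 CPM in KO libraries 5 to 8, against 12.5, 10.2, 8.85 and 8.93 CPM in WT libraries 13 to 16. No library of one genotype reached the other, and Pdia5 fell by 32.8% (log2 fold change -0.57 ± 0.12 SE, edgeR adjusted p = 0.00505). Pdia6, which works with Hspa5 (gene ID 71853, chr12:17266589-17284785), had 191, 195, 188 and 182 CPM in KO libraries 5 to 8, against 217, 219, 213 and 203 CPM in WT libraries 13 to 16. Again the groups did not overlap, and Pdia6 fell by 11.1% (log2 fold change -0.17 ± 0.04 SE, edgeR adjusted p = 0.011). Pdia3, the isomerase that acts with Calr and Canx on glycoproteins, averaged 515 ± 8.87 CPM in KO and 519.5 ± 29.0 CPM in WT libraries, and Pdia4 had a log2 fold change of -0.06. Neither passed.

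Hspa5, P4hb and Pdia5 stayed at an adjusted p under 0.05 in all 15 alternative fits. The adjusted p of Hsp90b1 was 0.0763 without KO library 5, 0.103 without KO library 7, 0.0734 without KO library 8 and 0.0932 without WT library 13, and that of Manf was 0.0762 without KO library 7, 0.0787 without KO library 8 and 0.0637 without WT library 13, while Creld2 and Pdia6 missed the threshold without KO library 8 (adjusted p = 0.0737 and 0.0567, edgeR).

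**Figure D3:**
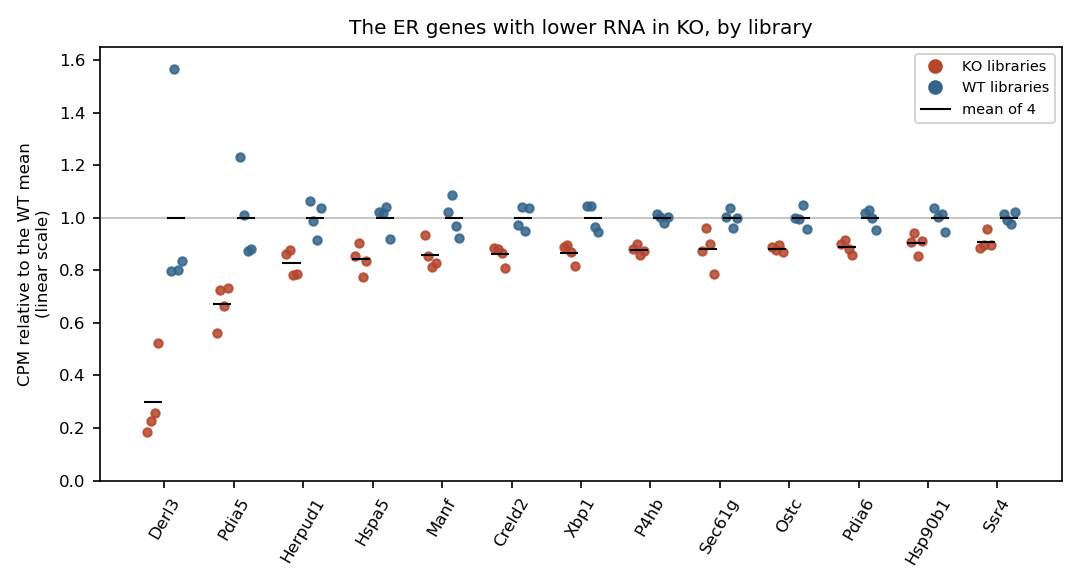
Level of each of the 13 called genes in each library, as CPM divided by the mean of the 4 WT libraries, on a linear axis from 0, with black lines for group means. KO points lie below WT points for every gene but Manf, and the KO means lie near 0.9 for most genes, lowest for Derl3.

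ER-associated degradation draws failed proteins out through a membrane complex around the ubiquitin ligase Syvn1. Herpud1, a stress-induced organiser of that complex (gene ID 64209, chr8:94386429-94395371), had 191, 193, 173 and 173 CPM in KO libraries 5 to 8, against 234, 218, 202 and 228 CPM in WT libraries 13 to 16. The groups did not overlap, and Herpud1 fell by 17.3% (log2 fold change -0.27 ± 0.05 SE, edgeR adjusted p = 0.00406). Derl3, the stress-inducible derlin of secretory cells (gene ID 70377, chr10:75893398-75895941), was the rarest of the 44 genes by TPM, with 7, 10, 11 and 22 counts in KO libraries 5 to 8, against 30, 70, 34 and 28 counts in WT libraries 13 to 16. That is 0.269 ± 0.139 CPM in KO and 0.903 ± 0.341 CPM in WT libraries (SD, n = 4 each), without overlap, and Derl3 fell by 70.1% (log2 fold change -1.74 ± 0.36 SE, edgeR adjusted p = 0.00522). Both stayed at an adjusted p under 0.05 in every alternative fit in which they were tested.

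None of the other degradation genes passed by edgeR with all libraries. Sel1l, the adaptor that holds Syvn1 in place, had 94.4, 87.4, 89.3 and 95.8 CPM in KO libraries 5 to 8, against 88.9, 78.4, 84.3 and 78.6 CPM in WT libraries 13 to 16. WT library 13 lay among the KO libraries, and Sel1l did not pass (log2 fold change 0.15 ± 0.05 SE, edgeR adjusted p = 0.063), although its adjusted p was 0.0343 without WT library 13 and 0.0311 with DESeq2 (0.0311 to 0.186 over 15 alternatives). Syvn1, the derlins Derl1 and Derl2, and Edem1, Edem2 and Edem3, which mark glycoproteins for degradation, had log2 fold changes between -0.05 and 0.11, none past the threshold. For Derl1, at -0.05, every KO library lay below every WT library. Syvn1 shares its locus with Mrpl49 (mean counts of 1269 and 1256) and Derl2 with Mis12 (1779.8 and 1464), so their values are uncertain if strand was not used in counting.

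Of the sensor class, Xbp1 was lower in KO. It encodes the transcription factor whose RNA is spliced by IRE1 (gene ID 22433, chr11:5520641-5525993), and had 187, 189, 183 and 171 CPM in KO libraries 5 to 8, against 219.6, 219.5, 203 and 199 CPM in WT libraries 13 to 16. Its groups did not overlap, and it fell by 13.2% (log2 fold change -0.20 ± 0.05 SE, edgeR adjusted p = 0.00954). Counts per gene do not separate its spliced from its unspliced form. Atf6, the membrane-bound factor that is cut in the Golgi, had 123, 113, 122 and 117 CPM in KO libraries 5 to 8, against 134, 113, 133 and 128 CPM in WT libraries 13 to 16. WT library 14 lay within the KO values, and Atf6 did not pass (log2 fold change -0.10 ± 0.05 SE, edgeR adjusted p = 0.258), but did without that library (edgeR adjusted p = 0.0423, 0.0423 to 0.508 over 15 alternatives). Ern1, the IRE1 of most tissues, averaged 18.6 ± 0.779 CPM in KO and 20.2 ± 1.72 CPM in WT libraries and did not pass (edgeR adjusted p = 0.278).

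Other genes of the early secretory pathway, in 7 lists by role, were read beside these. Of all genes tested, 8.26% were lower in KO and 7.63% higher. Of 13 other stress sensors and transcription factors, 5 (38.5%) were lower in KO and none higher. Atf4, the translation-controlled factor of the PERK arm, averaged 145 ± 7.27 CPM in KO and 194 ± 10.2 CPM in WT libraries (log2 fold change -0.42, edgeR adjusted p = 8.95e-05). Its target Ddit3, known as CHOP, averaged 12.2 ± 1.47 CPM in KO and 20.7 ± 2.44 CPM in WT libraries (log2 fold change -0.76, edgeR adjusted p = 0.000206). The phosphatase subunit Ppp1r15a, which reverses PERK signalling, and PERK itself (Eif2ak3) also fell, with log2 fold changes of -0.54 and -0.27 (edgeR adjusted p = 0.000312 and 0.0017). For these 4 genes every KO library lay below every WT library and every alternative fit kept the call at an adjusted p under 0.05. The fifth, Creb3l4, had adjusted p-values of 0.0793, 0.0572 and 0.0671 without KO libraries 5, 6 and 8 and of 0.0805 and 0.0582 without WT libraries 13 and 16 (edgeR). Whether PERK signalling itself differed between the genotypes was not tested.

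Of 16 other ER oxidoreductases and exchange factors, 4 (25%) were lower in KO, against 8.26% of all genes tested. The oxidase Ero1l, which recharges disulfide isomerases, averaged 1509.8 ± 49.7 CPM in KO and 1794 ± 119 CPM in WT libraries (log2 fold change -0.25, edgeR adjusted p = 0.00266). Agr2, a disulfide isomerase of mucin-producing cells, averaged 42.6 ± 5.76 CPM in KO and 63.8 ± 6.03 CPM in WT libraries (log2 fold change -0.58, edgeR adjusted p = 0.000692). Prdx4 and Erp29 also fell, by 0.25 and 0.15 on the log2 scale, and both calls ended when single libraries were left out. The adjusted p of Prdx4 was 0.0665, 0.0607 and 0.0753 without KO libraries 5, 7 and 8, and that of Erp29 was 0.102, 0.0514, 0.0687 and 0.079 without KO libraries 5, 6, 7 and 8 and 0.0668 and 0.0671 without WT libraries 13 and 16 (edgeR).

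The list of 9 other translocon and transferase subunits moved both ways, with 2 (22.2%) lower and 1 (11.1%) higher. Krtcap2, like Ostc a subunit of the STT3A form of the transferase, averaged 56.4 ± 3.08 CPM in KO and 67.9 ± 4.72 CPM in WT libraries (edgeR adjusted p = 0.00659), and Tmem258, a small subunit, also fell (edgeR adjusted p = 0.0213). Tmem258 missed the threshold without KO library 5 (0.0675), 6 (0.05) or 7 (0.0744) and without WT library 16 (0.0511). Tusc3, an oxidoreductase of the STT3B form, averaged 31.3 ± 1.02 CPM in KO and 26.7 ± 1.38 CPM in WT libraries and was higher (log2 fold change 0.23, edgeR adjusted p = 0.00905). Of 13 signal recognition and signal peptidase genes, 1 (7.69%) was lower in KO, near the 8.26% of all genes tested. This was the receptor subunit Srpr, with 173 ± 3.86 CPM in KO and 193 ± 6.14 CPM in WT libraries (edgeR adjusted p = 0.0123). Its call ended without KO library 8 (0.0571, the highest of 15 alternatives).

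In the remaining lists 1 gene passed by edgeR. None of the 16 other degradation components passed by edgeR, and their median log2 fold change was 0.05. At an unadjusted p under 0.05, 4 of the 16 were higher and 1 lower, against 2106 higher and 2177 lower of all 14945 genes tested. By DESeq2, 2 of the 16 were higher, against 1336 of all genes tested. The most abundant of them, Vcp, the ATPase that pulls proteins from the ER membrane, averaged 411 ± 5.31 CPM in KO and 391 ± 3.99 CPM in WT libraries (edgeR adjusted p = 0.174), and Rnf5, a ubiquitin ligase, 76.8 ± 3.64 CPM in KO and 76.7 ± 3.52 CPM in WT libraries. None of the 8 glycan trimming genes passed by edgeR or DESeq2, nor any at an unadjusted p under 0.05. The glucosidase II subunits Ganab and Prkcsh, its most abundant genes, averaged 220.5 ± 3.30 CPM and 139.8 ± 6.05 CPM in KO libraries, against 212 ± 1.62 CPM and 136 ± 8.30 CPM in WT libraries (SD, n = 4 each). Of 16 genes of the COPII coat and cargo export, only 1 passed (6.25%), higher in KO, near the 7.63% of all genes tested that were higher. This was Sec23a, with 114 ± 2.71 CPM in KO and 95.6 ± 8.23 CPM in WT libraries (edgeR adjusted p = 0.00666).

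**Figure D4:**
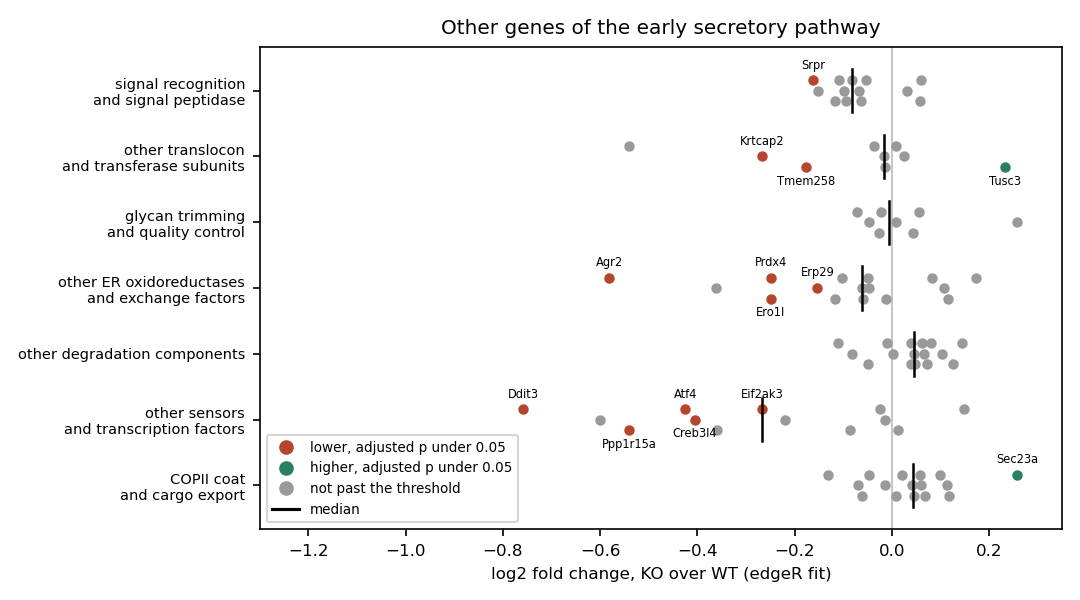
Fitted log2 fold change of KO over WT for the genes of 7 related lists, 1 point per gene, with a black line for the median of each list. Genes past the threshold are named: the other sensors and transcription factors have a median of -0.27, with Ddit3 at -0.76, while the other degradation components have a median of 0.05.

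Cell type markers moved with genotype too, where 8.26% of all genes tested were lower in KO and 7.63% higher. Of 12 goblet cell markers, 7 were lower in KO and none higher, and their summed level was 136 to 169.8 CPM in KO libraries and 185 to 246 CPM in WT libraries, with no marker at 0 in all libraries. Agr2 and the goblet cell transcription factor Spdef were among them, at 0.897 ± 0.0941 CPM of Spdef in KO and 1.46 ± 0.129 CPM in WT libraries (SD, n = 4 each, edgeR adjusted p = 0.0153). Muc2 averaged 5.95 ± 0.982 CPM in KO and 7.27 ± 0.582 CPM in WT libraries and did not pass (edgeR adjusted p = 0.115), nor did Atoh1 (0.0981), Ern2, the IRE1 of mucous cells (0.18), or Creb3l1 (0.0983). The part of the goblet cell markers in the lower ER genes was not tested.

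Other epithelial lists moved as well, where 8.26% of all genes tested were lower in KO and 7.63% higher. All 6 crypt stem and proliferating cell markers were lower in KO, summing to 612 to 655 CPM in KO and 726 to 908 CPM in WT libraries, and 4 of 8 enteroendocrine markers were lower, summing to 18.8 to 27.9 CPM in KO and 28.2 to 41.3 CPM in WT libraries. Of 5 tuft cell markers, Pou2f3 and Il25 were at 0 in every library and only Avil passed the filter, lower in KO. Of 8 absorptive colonocyte markers, 6 were higher in KO and Aqp8 was lower by edgeR alone (not by DESeq2 or limma-voom, and with overlapping groups), with a summed level of 5267 to 5563 CPM in KO and 3117 to 3687 CPM in WT libraries. The part of these lists in the ER results was not tested. Fibroblast markers were near 0, at 0.0422 to 0.371 CPM in KO and 0.141 to 0.234 CPM in WT libraries in sum, with Col1a2, Dcn and Lum at 0 in every library. Without KO library 6, the library with Lyz2 counts, 12 of the 13 calls remained and Ssr4 was lost (edgeR adjusted p = 0.0954).

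Across libraries, the mean log2 level of the 44 genes did not overlap between genotypes, at -0.06 to -0.03 in KO and 0.00 to 0.07 in WT libraries relative to the mean of all 8. The 13 called genes, picked by this difference, stood at -0.15 to -0.08 in KO and 0.08 to 0.18 in WT libraries. The 31 genes not called overlapped, at -0.03 to 0.00 in KO and -0.03 to 0.03 in WT libraries. The goblet cell markers stood at -0.35 to -0.03 in KO and -0.03 to 0.44 in WT libraries on the same scale.

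**Figure D5:**
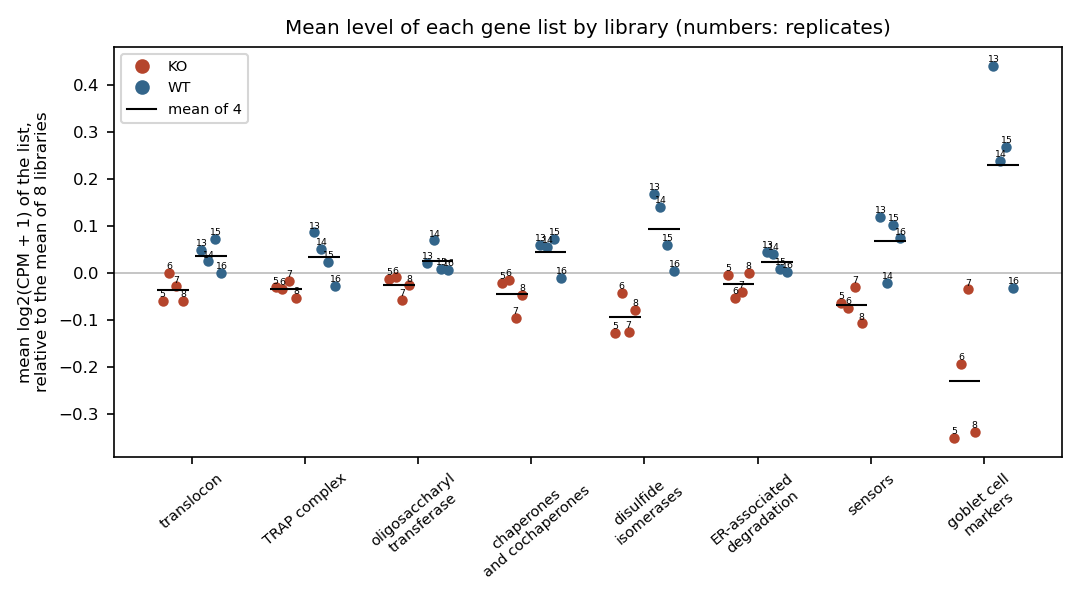
Mean log2(CPM + 1) of each gene list in each library, relative to the mean of the 8 libraries, with KO left of WT, library numbers above the points and lines for group means. Disulfide isomerases, the translocon and the oligosaccharyl transferase lie below 0 in all KO libraries and above 0 in all WT libraries, some only just. The goblet cell markers spread most within each genotype.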

How the data were processed

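RNA-seq of 8 mouse colonic organoid libraries was read from 1 deposited table. The deposited read counts per gene are raw, and the authors' FPKM values, scaled for length and depth, were not tested. The authors' TPM values, scaled for length and to the same total in each library, describe levels between genes. TopHat2, Bowtie2, TopHat, HTSeq and GRCm38 are named per the submitters' processing notes. Libraries were stranded mRNA, per the labels' protocols. For the counting, the strand setting is not stated. Counts of 2 were more frequent than counts of 1 (673 to 772 against 548 to 622 genes per library), so both mates of a pair may have been counted. No libraries of a genotype held identical values. Limits from counts of 0 (3 counts) cover counting error only.

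Genes were filtered with filterByExpr, TMM-scaled and compared by edgeR 4.0.16's quasi-likelihood test (R 4.3.3) over all 14945 genes, at a Benjamini-Hochberg adjusted p under 0.05. CPM is TMM-scaled, and errors are SD over 4 libraries unless named SE. The script was tested on simulated data. Alternatives were other scalings, filters, DESeq2 1.42.0, limma-voom (limma 3.58.1), a threshold of 0.01 and leaving out each library. All called genes were described in full, with the 2 most abundant genes of a class with fewer than 2 calls. Of related lists, up to 4 genes with the smallest adjusted p were named, or the 2 most abundant where none passed. The members, lists and rules were chosen with earlier results of these data known.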

Additional observations from a re-analysis of the deposited data

Results flagged for a closer look

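Within each genotype, a library far from the other 3 was looked for in all 44 genes with Dixon's test, which by chance alone flags about 1 in 20 groups, and 4 of 88 groups held one. Derl3 stood at 1.41 CPM in WT library 14, against 0.719, 0.723 and 0.755 CPM in the other WT libraries. Ssr4 stood at 102.8 CPM in KO library 7, against 95.2, 96.2 and 96.5 CPM in the other KO libraries. Stt3a was low in KO library 7, at 235.3 CPM against 247, 249 and 249 CPM in the other KO libraries. Stt3b was high in WT library 13, at 347.5 CPM against 334, 335 and 335 CPM in the other WT libraries. Without WT library 14 Derl3 was still lower in KO.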

How the results depend on the processing

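No direction reversed for the 13 lower genes, and 6 of them (Ostc, Hspa5, P4hb, Pdia5, Herpud1 and Xbp1) stayed at an adjusted p under 0.05 in all 15 alternative fits, as Derl3 did in the 14 that tested it. At an adjusted p under 0.01, 597 genes of all tested were lower and 562 higher, and 6 of the 44 were lower (Hspa5, P4hb, Pdia5, Herpud1, Derl3 and Xbp1, and not Ostc), with 0 in the translocon and oligosaccharyl transferase class and 3 among chaperones and disulfide isomerases. Upper quartile scaling, the DESeq2 Wald test and a filter of at least 1 CPM in 4 libraries each called 1 of the 44 higher (Sel1l). That filter removed Derl3 and left 1 degradation gene lower. Without a filter on low counts, which adds genes to the adjustment, 1 translocon and transferase gene was lower.

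Leaving out each library in turn gave 724 to 1404 lower and 696 to 1386 higher genes of all tested. Of the 44, 7 to 13 were lower and 0 to 1 higher, with the fewest without KO library 8, where 15.9% of the 44 and 4.78% of all genes tested were lower. The translocon and transferase class gave 1 to 3 lower genes, the chaperones and disulfide isomerases 3 to 7, and the sensor class 1 to 2. Class medians ran from -0.0799 to -0.0439 for the translocon and transferase, 0.0153 to 0.0529 for degradation and -0.1744 to -0.0863 for the sensors. The causes of these shifts were not tested. No paired analysis was possible because the genotypes share no library numbers. Depth limits Derl3, which had 7 to 22 counts in KO libraries.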

Other observations

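The ERSE also stood in the promoter windows of 28 genes outside the 44, a count made after the values were seen. Of all genes tested, 8.26% were lower in KO and 7.63% higher. Of the 11 ERSE genes outside the 44 that were tested, none was lower in KO by edgeR and 2, Acacb and Xlr3a, were higher. Their median log2 fold change was 0.17. The 9 genes of the 44 with an ERSE had a median of -0.15. Many of the 28 are not known ER genes and were listed at or near 0 counts. Of the 7 tested genes outside the 44 with an ERSE-II, the transferase subunit Krtcap2 was lower, Lgalsl was higher and Nucb1, Rbm39, Rcl1, Lrif1 and Gm46430 did not pass.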
